A study of Rattus norvegicus with 15 samples.

Results

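The genes described are Ttr, Clic6, Kl, Folr1 and Aqp1, which are widely used to recognise the epithelium of the choroid plexus. They were chosen by symbol, and each matched 1 RefSeq transcript record, so 5 records of 18278 were followed. Read counts came from 15 rat brain libraries of bulk tissue. The hippocampus was represented by 4 libraries from rats given vagus nerve stimulation (VNS) and 3 from control rats. VNS rats were stimulated for 30 min a day on 4 days in a row through an implanted device, and control rats carried a sham device. Rats of both hippocampal groups also did a novelty preference task of 10 min on days 2 to 4, and tissue was taken right after the last stimulation. From cortex there were 4 libraries of VNS rats and 4 of control rats, for which the series text gives no task. The labels used here name no strain, sex or age. Nothing in the labels ties libraries to separate litters or days, so p-values measure the spread between these libraries, which may in part be technical.

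The choroid plexus is the secretory epithelium that hangs into the brain ventricles, makes cerebrospinal fluid and forms the barrier between blood and that fluid. Its cells pump ions and water, carry vitamins and hormones, and secrete proteins into the fluid. One of its sheets lies along the hippocampus in the lateral ventricle, so pieces of it can come away with dissected hippocampal tissue, and another lies over the thalamus in the third ventricle. Ttr encodes transthyretin, the carrier of thyroxine and of retinol-binding protein, and is among the most abundant transcripts of choroid plexus epithelium. Folr1 encodes folate receptor alpha, which moves folate into the fluid, and Aqp1 a water channel of the apical membrane. Kl encodes klotho, the co-receptor that lets fibroblast growth factor 23 act on its receptors, and Clic6 a member of the chloride intracellular channel family. Fewer choroid plexus cells and less RNA per cell cannot be told apart in bulk tissue.

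Upstream sequences of the genes were also looked at, as a description only. Clic6 and Folr1 had no entry in the promoter reference used, so sequences are shown for 3 of the 5 genes. They are the 250 bases before the annotated gene start (RefSeq, GRCr8, forward strand), at chr18:12218508-12218757 for Ttr, chr12:5325753-5326002 for Kl and chr4:85812534-85812783 for Aqp1. Capitals mark matches on either strand to the 7 motifs searched: the OTX letters TAATCC, the FOX letters TGTTTAC, the RFX letters GTTGCC, the homeodomain letters TAATTA, the TATA box TATAAA, the CCAAT box and the GC box GGGCGG.
Ttr: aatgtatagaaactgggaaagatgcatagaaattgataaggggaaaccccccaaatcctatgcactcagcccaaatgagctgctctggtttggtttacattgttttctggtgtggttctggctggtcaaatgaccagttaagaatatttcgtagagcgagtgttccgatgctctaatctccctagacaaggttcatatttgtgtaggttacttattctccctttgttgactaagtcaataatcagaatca
Kl: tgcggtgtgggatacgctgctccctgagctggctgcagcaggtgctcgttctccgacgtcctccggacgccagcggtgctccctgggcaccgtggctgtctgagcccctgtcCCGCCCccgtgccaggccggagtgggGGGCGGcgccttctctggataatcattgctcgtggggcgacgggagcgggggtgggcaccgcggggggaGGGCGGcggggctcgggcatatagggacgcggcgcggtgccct
Aqp1: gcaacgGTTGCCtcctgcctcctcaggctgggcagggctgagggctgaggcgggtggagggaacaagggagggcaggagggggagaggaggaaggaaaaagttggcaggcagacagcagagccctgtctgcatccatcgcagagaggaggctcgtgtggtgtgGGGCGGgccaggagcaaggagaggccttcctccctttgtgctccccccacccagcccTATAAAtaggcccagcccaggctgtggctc

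None of the 7 motifs stood in the Ttr window, which was 40.4% G and C. The Kl window was 73.2% G and C and held GGGCGG in 3 places, 1 of them on the reverse strand as CCGCCC. The Aqp1 window was 65.2% G and C and held TATAAA starting 30 bases before the gene start, GGGCGG at 87 bases and GTTGCC at 244 bases. Among 33469 rat windows of the same length, whose median G and C content was 51.2%, GGGCGG stood in 30.5%, TATAAA in 12.9% and GTTGCC in 9.89%. TAATCC stood in 6.34% of them, TGTTTAC in 3.21%, TAATTA in 4.86% and CCAAT in 34%. These matches describe letters only, and no motif was common to the 3 windows. Bases outside the windows, those after the annotated gene start included, were not searched. A motif absent from a window, such as TATAAA for Ttr, may therefore still stand in the gene's promoter.

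Control libraries 1 and 2 went against the hippocampal label in neuronal markers. A list of 13 records of hippocampal and cortical excitatory neurons summed to 3435 to 5644 CPM (reads of a record per 1000000 counts of the library size after scaling by TMM, the trimmed mean of M values) in VNS libraries, and to 728.6, 234.8 and 4163 CPM in control libraries 1, 2 and 3. A list of 11 records of thalamic and brainstem neurons summed to 85.2 to 184.4 CPM in VNS libraries, and to 1310, 466.2 and 107.8 CPM in control libraries 1, 2 and 3. Lhx2, 1 of the 11, went the other way, at 54.7, 44.2, 65.0 and 48.4 CPM in VNS libraries 1 to 4. In control libraries 1 to 3 Lhx2 stood at 3.08, 11.0 and 48.7 CPM. It made up much of the sum in VNS library 1 and control library 3. Control library 3 lay within the VNS range in both lists. Control libraries 1 and 2 were not alike in single markers. Slc17a6 stood at 379.7 and 347.4 CPM in them, but Prkcd at 794.0 and 11.8 CPM and Slc17a7 at 237.2 and 4.09 CPM. In VNS libraries Prkcd stood at 6.19 to 41.2 CPM. The values of the 5 genes, the list medians and the values of many genes set beside them are therefore also given without control libraries 1 and 2. VNS library 3 was the shallowest, with 4301901 counts outside ribosomal and 7SL RNA records against 12147165 to 42620738 in the other 6 libraries. Ribosomal RNA records held 73.1% of its counts, against 9.34%, 31.6% and 31.3% in VNS libraries 1, 2 and 4. In control libraries 1 to 3 they held 8.85%, 7.11% and 19.3%. The TMM factor of VNS library 3 was 0.294, against 0.999 to 1.47 in the other 6. A gene with 0 reads there could still stand at up to 0.61 CPM, the level of 3 reads, whereas that level was 0.044 to 0.146 CPM in the other 6. The file headers hold no option for counting read pairs as 1, and 73.9% to 79.0% of counts from 1 to 20 were even in 6 libraries (54.2% in VNS library 1). Where both reads of a pair were counted, counting error is larger than the number of reads implies. A gene with 0 reads could then stand above the level of 3 reads.

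All 5 genes were scarce. Ttr (record NM_012681, rn5 chromosome 18, 15307564 to 15314777, 4 exons) ranked 9619 of 18278 records by mean CPM, and Aqp1 and Clic6 ranked 11841 and 11959. Per kilobase of exon, Ttr averaged 5.64 ± 10.3 CPM (SD, n = 7 libraries) and Folr1 0.726 ± 0.488. Kl averaged 0.360 ± 0.452, Clic6 0.250 ± 0.330 and Aqp1 0.237 ± 0.117 CPM per kilobase. The mean of Ttr lay above every Folr1 library (highest 1.37 CPM per kilobase) but its median did not, control library 1 being at 28.9, and below Ttr each mean lay within 1 SD of its neighbour's. The median over libraries was 1.16 CPM per kilobase for Ttr, 0.860 for Folr1, 0.170 for Aqp1, 0.135 for Kl and 0.0873 for Clic6, so the lower 3 changed places. Kcnj13 and Cldn2, other genes typical of this epithelium that were chosen after their values were seen, were as scarce. Kcnj13, a potassium channel of its apical membrane, ranged over 0.074 to 1.22 CPM in VNS libraries and over 0.207 to 0.957 CPM in controls. Cldn2, its tight junction claudin, stood at 0 to 0.296 CPM in VNS libraries and at 0 to 0.916 CPM in controls.

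Transthyretin transcripts were the most uneven. Ttr had 208, 40, 4 and 14 reads in VNS libraries 1 to 4, which gave 3.08, 1.94, 0.813 and 0.347 CPM. Control libraries 1 to 3 had 993, 24 and 38 reads, or 20.2, 0.435 and 0.787 CPM. Control library 1 was far above the rest, and the other 2 controls lay inside the VNS range. Ttr averaged 1.55 ± 1.22 CPM in VNS hippocampus (SD, n = 4) and 7.15 ± 11.3 CPM in control hippocampus (SD, n = 3). The log2 fold change was -2.12 (SE 1.26) and did not pass (adjusted p = 0.45, edgeR quasi-likelihood test, two-sided, threshold 0.05 after Benjamini-Hochberg adjustment). Without control library 1 it was 1.4 (adjusted p = 0.75), so the direction rested on that library.

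**Figure D1:**
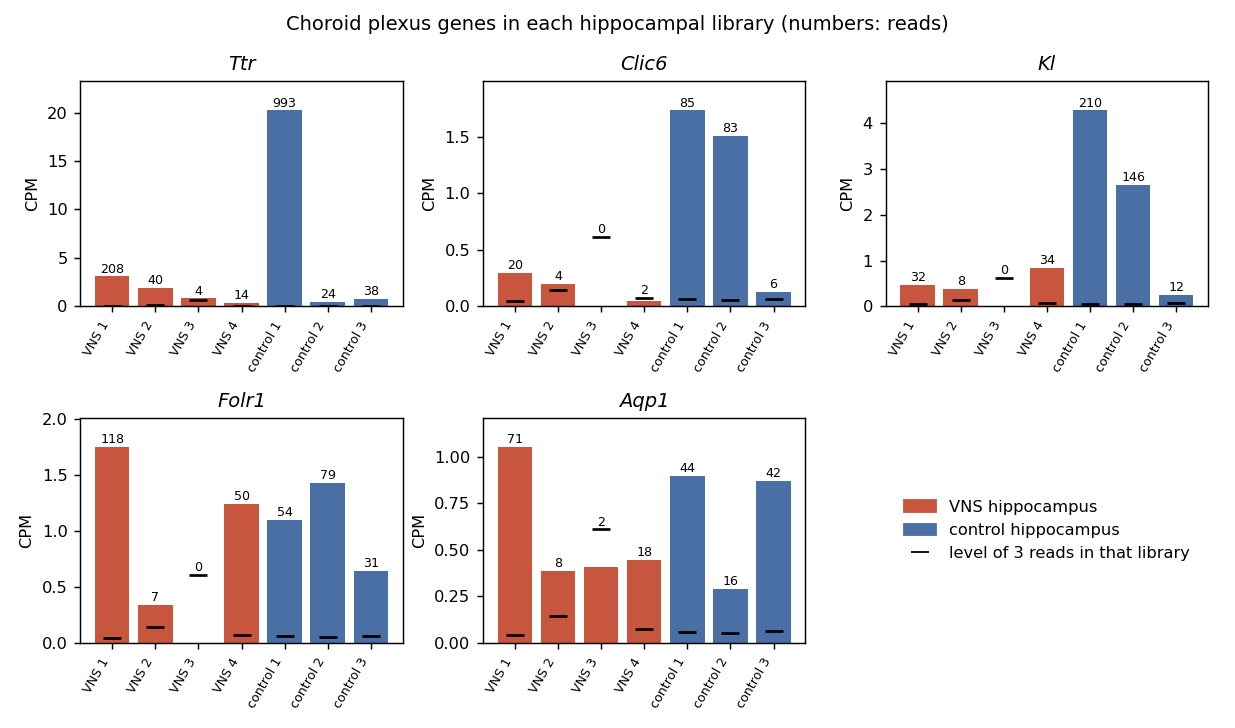
CPM of each gene (bars, linear axis from 0) in the 4 VNS and 3 control hippocampal libraries, with the number of reads above each bar and a black dash at the level of 3 reads in that library. Ttr is high in control library 1 (20.2 CPM), Clic6 and Kl in control libraries 1 and 2, and Folr1 and Aqp1 show no such step.

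Clic6 and Kl were high in control libraries 1 and 2 and low elsewhere. Clic6 (NM_176078, rn5 chromosome 11, 36259974 to 36302131) had 20, 4, 0 and 2 reads in VNS libraries 1 to 4, or 0.296, 0.194, 0 and 0.050 CPM. Its control libraries 1 to 3 had 85, 83 and 6 reads, or 1.73, 1.5 and 0.124 CPM. Control library 3 lay within the VNS values. The log2 fold change of Clic6 was -2.71 (SE 0.96, adjusted p = 0.40, edgeR), with means of 0.135 ± 0.135 CPM in VNS (SD, n = 4) and 1.12 ± 0.869 CPM in control libraries (SD, n = 3).

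Kl (NM_031336, rn5 chromosome 12, 929158 to 972144) had 32, 8, 0 and 34 reads in VNS libraries 1 to 4, or 0.474, 0.388, 0 and 0.842 CPM. Control libraries 1 to 3 had 210, 146 and 12 reads, or 4.28, 2.65 and 0.249 CPM. Control library 3 was again among the VNS values, below VNS libraries 1, 2 and 4. The means were 0.426 ± 0.346 CPM in VNS (SD, n = 4) and 2.39 ± 2.03 CPM in control libraries (SD, n = 3). The log2 fold change of Kl was -2.25 (SE 0.89, adjusted p = 0.40, edgeR).

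For both genes the call turned on single control libraries. Without control library 3, Clic6 (log2 fold change -3.22, adjusted p = 0.026) and Kl (-2.76, adjusted p = 0.024) passed, in a fit that called 1377 of 12931 records. Without control libraries 1 and 2, the values were 0.40 for Clic6 and 0.97 for Kl (adjusted p = 0.99995 for both, edgeR, with the lone control assumed to vary like the VNS libraries). The 2 libraries high in Clic6 and Kl had low sums of excitatory neuron markers and high sums of thalamic and brainstem markers. They differed from each other in Prkcd and Slc17a7, and the part of tissue composition in the result was not tested.

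Folr1 and Aqp1 did not share that step. Folr1 (NM_133527, rn5 chromosome 1, 173124242 to 173135630) had 118, 7, 0 and 50 reads in VNS libraries 1 to 4, or 1.75, 0.340, 0 and 1.24 CPM. Control libraries 1 to 3 had 54, 79 and 31 reads, or 1.10, 1.43 and 0.642 CPM. VNS library 1 was the highest, and the control values fell between VNS libraries 2 and 1. The log2 fold change of Folr1 was -0.16 (SE 0.76, adjusted p = 0.94, edgeR), with means of 0.832 ± 0.804 CPM in VNS (SD, n = 4) and 1.06 ± 0.396 CPM in control libraries (SD, n = 3).

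Aqp1 (NM_012778, rn5 chromosome 4, 150203461 to 150215641) had 71, 8, 2 and 18 reads in VNS libraries 1 to 4, or 1.05, 0.388, 0.407 and 0.446 CPM. Control libraries 1 to 3 had 44, 16 and 42 reads, or 0.896, 0.290 and 0.870 CPM. VNS library 1 was again the highest, and control library 2, high in Clic6 and Kl, was the lowest. The log2 fold change of Aqp1 was -0.17 (SE 0.58, adjusted p = 0.91, edgeR), with means of 0.573 ± 0.320 CPM in VNS (SD, n = 4) and 0.685 ± 0.343 CPM in control libraries (SD, n = 3). The sign changed in 4 of 19 other fits for each of the 2 genes, so no direction can be given for Folr1 or Aqp1. Without control libraries 1 and 2, Folr1 was at 0.58 and Aqp1 at -0.51 (adjusted p = 0.99995 for both, edgeR).

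**Figure D2:**
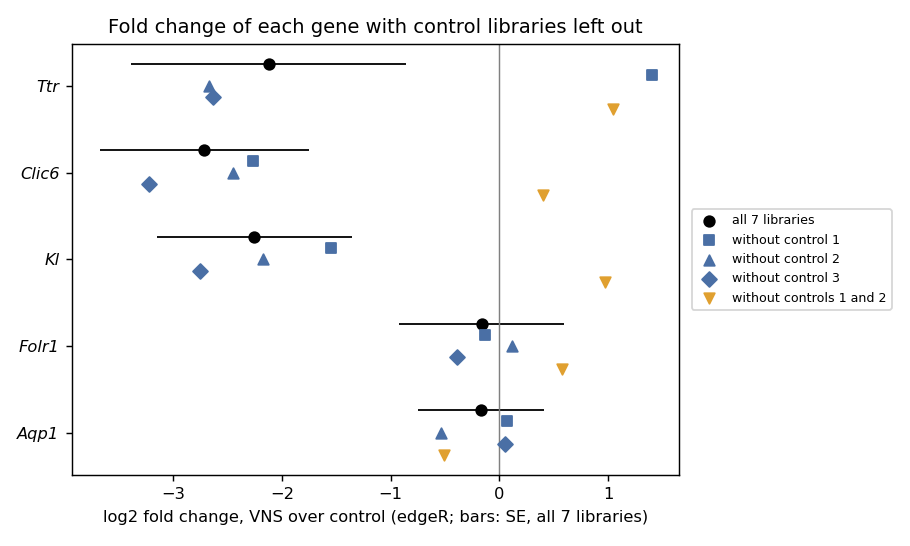
Log2 fold change of each gene, VNS over control, in edgeR fits on all 7 hippocampal libraries (black, with SE) and with the named control libraries left out. Ttr moves to 1.4 without control library 1, and Clic6, Kl, Ttr and Folr1 are above 0 without control libraries 1 and 2, where Aqp1 is at -0.51.

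All 5 genes passed the filter on low counts. None was called at the adjusted threshold, and neither was any other of the 12728 records tested (0% called). DESeq2 called 16 records, none of the 5 genes among them, but gave no adjusted p for Ttr, Clic6 and Aqp1. Clic6 and Kl had an unadjusted p under 0.05, both lower in VNS. That was so for 7.28% of records in that direction and for 12.1% in either direction. No gene had every VNS library below every control library, a pattern seen in 4.61% of records. The 5 values were all negative, with a median of -2.12 against -0.0068 over all records. The median describes a list that splits into 3 genes below -2 and 2 genes near 0.

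The makeup of the reads also differed between libraries. Ttr gave 46.3%, 59.7%, 66.7% and 11.9% of the reads of the 5 genes in VNS libraries 1 to 4, of 449, 67, 6 and 118 such reads. It gave 71.6%, 6.90% and 29.5% in control libraries 1 to 3, of 1386, 348 and 129 reads. The exact 95% Clopper-Pearson intervals were 69.2% to 74.0% in control library 1 and 4.47% to 10.1% in control library 2. They treat each read as independent and cover counting error only. Where both reads of a pair were counted they are too narrow. Kl gave 15.2% of these reads in control library 1 and 42.0% in control library 2. Per kilobase, the ratio of Ttr to Kl was 32.7, 25.1 and 2.07 in VNS libraries 1, 2 and 4, and 23.8, 0.826 and 15.9 in control libraries 1 to 3. The ratio of Clic6 to Kl was 0.988, 0.790 and 0.093 in those VNS libraries, and 0.640, 0.898 and 0.790 in the controls. Clic6 and Kl thus kept a like ratio in 5 of the 6 libraries with reads of both, while Ttr stood at more than 15 times Kl in 4 of the 6 and near or below it in control library 2.

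**Figure D3:**
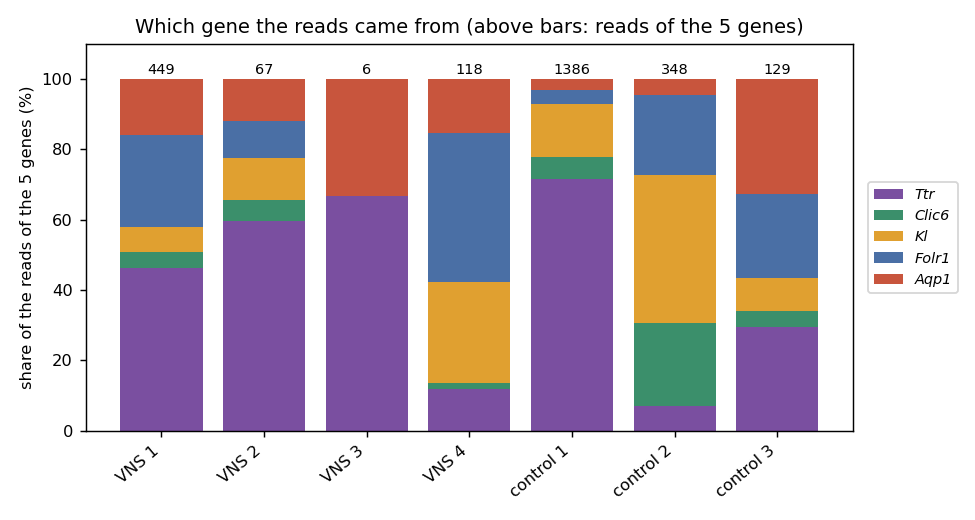
Share of the reads of the 5 genes (%) that fell on each gene in every hippocampal library, with the total number of such reads above each bar. Ttr holds 71.6% in control library 1 and 6.90% in control library 2, where Kl holds 42.0%, and VNS library 3 rests on 6 reads.

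Correlations of log2 CPM over the 7 hippocampal libraries were computed for the 10 pairs of genes. No pair passed after adjustment over the 10 pairs (exact permutation tests, two-sided). The smallest adjusted p, 0.093 for Pearson's r and 0.48 for Spearman's rho, belonged to Clic6 and Kl, with control libraries 1 and 2 standing apart from the rest in both genes. Their pooled r is therefore not given. Over the other 5 libraries their r was 0.65, and each r over 5 libraries is given as a description with no test. For Kl and Folr1, r was 0.81 and rho 0.64 (exact permutation p = 0.027 and 0.14, adjusted 0.14 and 0.53). Without VNS library 3, where both had 0 reads, and control library 1, r was 0.55. For Ttr and Kl, r was 0.37 and rho 0.11 (exact permutation p = 0.40 and 0.84). Without VNS library 1 and control library 1, the 2 libraries farthest from the median of Ttr, r was -0.43. For Ttr and Aqp1, r was 0.62 and rho 0.54 (exact permutation p = 0.12 and 0.24), and r was 0.11 without the same 2 libraries.

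None of the 10 genes nearest to the mean profile of the 5 over the 7 libraries was on the choroid plexus list. The highest Pearson r, 0.991, belonged to Got2, a mitochondrial aminotransferase, followed by Srp14 of the signal recognition particle (0.980) and Wars1, the cytosolic tryptophan tRNA ligase (0.977). Fhip2b, Ankrd52, Podxl, Kbtbd3, Nbr1, Zfp385a and Lrpprc followed at 0.976 to 0.973. Among 12001 named records, 1.76% had r over 0.9. Genes of the choroid plexus list were spread from 0.888 (Slc12a2, rank 275) to -0.880 (Cldn1, rank 11757). Next to Slc12a2 came Krt18 (0.853) and Cldn2 (0.839), and next to Cldn1 came Otx1 (-0.840) and Cldn3 (-0.822). Got2 had 147.0, 115.2, 82.7 and 111.6 CPM in VNS libraries 1 to 4, against 176.0, 144.9 and 112.4 CPM in control libraries 1 to 3. The mean profile was lowest in VNS library 3, where 3 of the 5 genes had 0 reads and its value depends on the prior count. The 7 points share their libraries and depths, so these values are a description with no test.

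None of the other genes of the choroid plexus passed the test. Of 50 further symbols, 46 were measured in 52 records and 42 records were tested, of which 14 had positive and 28 negative log2 fold changes (median -0.31). At an unadjusted p under 0.05, 1 of the 42 was higher and 5 were lower in VNS (edgeR). Among all tested records 7.28% were lower at that level, and 12.1% passed it in either direction. The 1 higher was Calml4. The 5 lower were Slc12a2, Enpp2, Car2, Sostdc1 and Slc4a5 (log2 fold change -1.85, SE 0.74, adjusted p = 0.40, edgeR). The 3 with the smallest p at 1 CPM or more are also active in oligodendrocytes. They were Slc12a2, a sodium, potassium and chloride co-transporter (log2 fold change -1.04, SE 0.32), Enpp2, which makes lysophosphatidic acid (-1.03, SE 0.32), and Car2, a carbonic anhydrase (-0.82, SE 0.27, adjusted p = 0.40 for each, edgeR). Slc12a2 had 139.4, 164.9, 84.8 and 168.1 CPM in VNS libraries 1 to 4, against 401.3, 285.9 and 174.9 CPM in control libraries 1 to 3. For Slc12a2 every VNS library was below every control library, a pattern seen in 4.61% of tested records. Control library 3 was nearest to the VNS values. Of the 8 tested records of mature oligodendrocyte markers, 0 were positive and 8 negative (median -0.82), with 0 called and 5 at an unadjusted p under 0.05. The sum of all 13 records of these markers was 1964 to 4593 CPM in VNS and 4049 to 7446 CPM in control libraries. Without control libraries 1 and 2, 27 of 45 tested choroid plexus records were positive and 18 negative (median 0.13, against 0.0089 over all records), and Slc12a2, Enpp2 and Car2 were at -0.33, -0.32 and -0.22. The part of oligodendrocyte content in the values of Slc12a2, Enpp2 and Car2 was not tested.

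Otx2, Lmx1a and Sostdc1, also active in the epithelium and chosen after their values were seen, varied by library. Otx2, needed for choroid plexus development and also active in thalamus and midbrain, stood at 0.030, 3.30, 0 and 0.099 CPM in VNS libraries 1 to 4. In control libraries 1 to 3 it stood at 3.54, 25.3 and 0.041 CPM. Control library 2, the highest in Otx2, was low in Ttr. Lmx1a, a factor of the roof plate from which the epithelium arises, had 5, 0, 0 and 0 reads in VNS libraries and 78, 26 and 0 reads in control libraries 1 to 3. Sostdc1, a secreted antagonist of bone morphogenetic proteins, stood at 0.015, 0.437, 0 and 0.050 CPM in VNS libraries and at 0.957, 0.580 and 0.373 CPM in control libraries 1 to 3, so VNS library 2 was above control library 3. For Lmx1a and Sostdc1 control library 1 was the highest, as for Ttr, Clic6 and Kl. Log2 fold changes were -3.45 (SE 1.80) for Otx2 and -2.37 (SE 1.03) for Sostdc1, of which neither passed (adjusted p = 0.42 and 0.40, edgeR). They were 4.30 for Otx2, where VNS library 2 was far above the other 4 libraries, and -1.58 for Sostdc1 without control libraries 1 and 2.

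Other genes of the same list went the other way, and these too were chosen after their values were seen. Calml4, a calmodulin-like protein, had 3.20, 4.08, 4.88 and 4.14 CPM in VNS libraries 1 to 4, against 1.10, 0.688 and 3.36 CPM in control libraries 1 to 3. Car12, a membrane carbonic anhydrase, had 13, 25.4, 42.3 and 15.1 CPM in VNS libraries, against 4.32, 2.10 and 21.9 CPM in controls. Both were low in control libraries 1 and 2, with control library 3 inside the VNS range. Log2 fold changes were 1.23 (SE 0.53) for Calml4, 1.32 (SE 0.78) for Car12, 1.57 (SE 0.84) for the claudin gene Cldn1 and 0.83 (SE 0.52) for the adhesion gene Epcam. None of the 4 passed (adjusted p = 0.40 to 0.47, edgeR), and without control libraries 1 and 2 the values were 0.24 for Calml4, 0.059 for Car12, 0.32 for Cldn1 and 0.43 for Epcam.

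**Figure D4:**
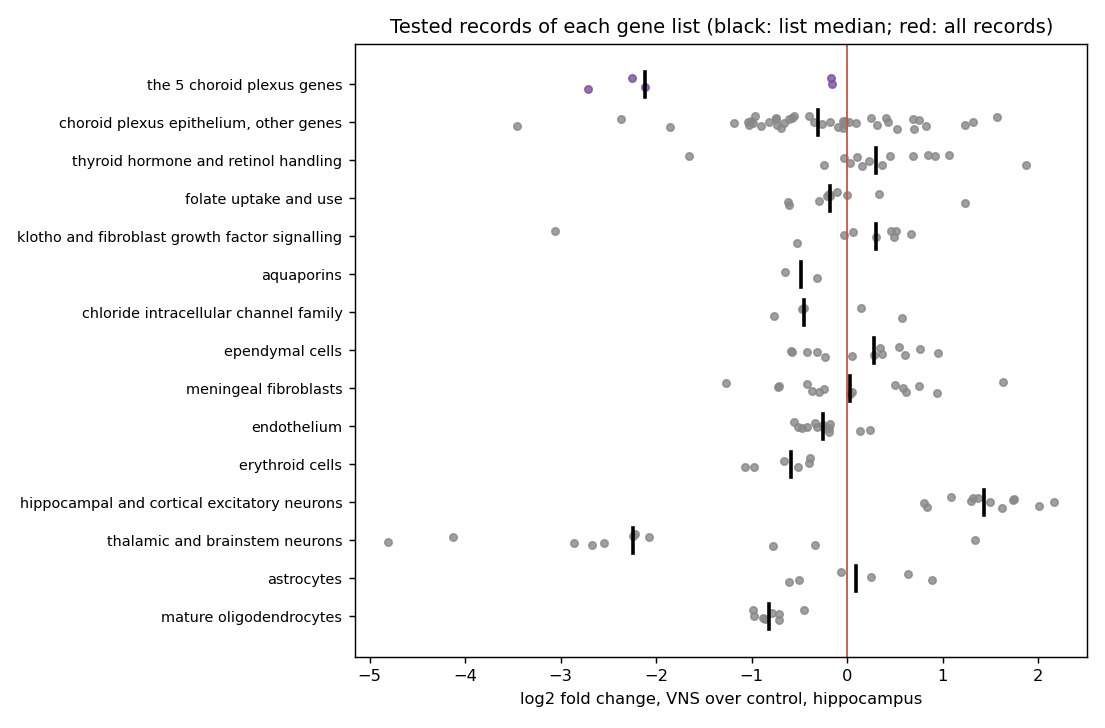
Log2 fold change, VNS over control, of every tested record in each gene list (points), with the list's median (black) and the median of all tested records (red line). The 5 choroid plexus genes split into 3 below -2 and 2 near 0, and the further choroid plexus genes lie on both sides of 0 with a median of -0.31.

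Genes that work with the 5 were read by role. Among all 12728 tested records, 610 were higher and 927 lower in VNS at an unadjusted p under 0.05 (edgeR). These are the background for the counts at that level in this and the following lists. Of 14 tested records for carriers, transporters and enzymes of thyroid hormone and retinol, the cargo of transthyretin, 11 were positive and 3 negative (median 0.30). Of these 0 were called, and 1 higher and 1 lower had an unadjusted p under 0.05. Lrp2, an uptake receptor for such carriers, had the smallest p (-1.66, SE 0.57), at 2.03 to 3.08 CPM in VNS libraries and at 7.35, 14.7 and 1.91 CPM in control libraries 1 to 3. Control libraries 1 and 2 were thus high in Lrp2 too, and without them its log2 fold change was 0.40. Dio2, which activates thyroxine, was the most abundant of this list, at 84.7 to 100.1 CPM in VNS libraries and at 62.5, 44.0 and 98.9 CPM in control libraries 1 to 3 (log2 fold change 0.44, SE 0.25, adjusted p = 0.44, edgeR).

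Of 10 tested records of folate uptake and use, 2 were positive and 8 negative (median -0.18), and 0 were called or had an unadjusted p under 0.05. Tyms, thymidylate synthase, had the smallest p in that list (-0.62, SE 0.36), with 6.02 to 9.15 CPM in VNS libraries and 18, 8.79 and 6.21 CPM in control libraries 1 to 3. Of 9 tested records of klotho and fibroblast growth factor signalling, 6 were positive and 3 negative (median 0.30), with 0 called and 2 higher and 1 lower at an unadjusted p under 0.05. Fgfr1, a receptor with which klotho acts, was at a log2 fold change of 0.66 (SE 0.26) and Fgf1, a growth factor of the same family, one of -3.05 (SE 0.94, adjusted p = 0.40 for both, edgeR). Fgf1 had 0.445, 1.51, 0 and 0.545 CPM in VNS libraries 1 to 4, against 5.44, 11.0 and 0.704 CPM in control libraries 1 to 3. Fgf1 was at -0.059 and Fgfr1 at 0.48 on the log2 scale without control libraries 1 and 2.

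In the family of Clic6, 5 other records were tested, 2 positive and 3 negative, with 0 called and 1 at an unadjusted p under 0.05. Clic4 had the smallest p (-0.76, SE 0.25, adjusted p = 0.40, edgeR), at 21.6 to 32.5 CPM in VNS libraries and at 56.5, 59.0 and 30.4 CPM in control libraries 1 to 3. As for Clic6, control libraries 1 and 2 were above every VNS library and control library 3 lay inside the VNS range, and without them Clic4 was at -0.10. Of the other aquaporins, 2 of 14 records were tested, Aqp11 (-0.65, SE 0.28) and Aqp9 (-0.32, SE 0.25), and neither was called or had an unadjusted p under 0.05. Records of Aqp2, Aqp4, Aqp6 and Aqp7 held 0 reads in all 7 libraries. Aqp4 is abundant in astrocytes, so a record at 0 there does not show that the gene is silent, and whether its reads were lost in counting was not tested.

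Cells that border the choroid plexus were looked at beside it. Of 13 tested records of ependymal cells, the ciliated lining of the ventricles, 8 were positive and 5 negative (median 0.28), with 0 called and 2 higher and 1 lower at an unadjusted p under 0.05. The sum of all 17 records was 29.6 to 42.9 CPM in VNS libraries and 30.0 to 37.6 CPM in control libraries, so the groups overlapped. Foxj1, the regulator of motile cilia, had 4.65, 2.62, 3.05 and 6.52 CPM in VNS libraries 1 to 4, against 5.40, 6.0 and 3.75 CPM in control libraries 1 to 3, with no step at control libraries 1 and 2. Meningeal fibroblast markers summed to 141.5 to 296.0 CPM in VNS libraries and 199.6 to 386.9 CPM in control libraries, with 8 of 15 records positive and 7 negative (median 0.03), 0 called, and 3 higher and 1 lower at an unadjusted p under 0.05. Endothelial markers summed to 314.1 to 465.5 CPM in VNS libraries and 392.2 to 528.3 CPM in control libraries. Of their 13 tested records, 2 were positive and 11 negative (median -0.25), with 0 called and 1 at an unadjusted p under 0.05.

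Red blood cell markers were high in the library that was high in Ttr. The 6 records summed to 147.8, 129.0, 210.0 and 84.8 CPM in VNS libraries 1 to 4 and to 385.5, 122.0 and 147.9 CPM in control libraries 1 to 3. All 6 tested records were negative (median -0.59), with 0 called and 1 at an unadjusted p under 0.05. Hbb, a beta globin, had 48.8, 44.5, 20.5 and 24.2 CPM in VNS libraries, against 127.7, 41.4 and 50.1 CPM in control libraries 1 to 3. Globin records are near-identical copies whose reads may be split. The part of blood content in the Ttr value of control library 1 was not tested.

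Astrocyte markers summed to 2303 to 3134 CPM in VNS libraries and 1920 to 2492 CPM in control libraries, with 3 of 6 tested records positive and 3 negative (median 0.09), 0 called and 1 at an unadjusted p under 0.05. Of the 12 tested records of hippocampal and cortical excitatory neurons, 12 were positive (median 1.43), and 0 were called or had an unadjusted p under 0.05. Of the 11 of thalamic and brainstem neurons, 1 (Lhx2, log2 fold change 1.34) was positive and 10 negative (median -2.24). Of these, 0 were called and 6 had an unadjusted p under 0.05, lower in VNS. Without control libraries 1 and 2 the median was 0.13 for the excitatory list and 0.55 for the thalamic and brainstem list, with 0 called in each of the 14 lists.

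In the cortex the 5 genes could not be followed at this depth. Kl, Folr1 and Aqp1 had 0 reads in all 8 cortex libraries, Ttr had 4 reads in 2 control libraries, and Clic6 had 2 reads in 1 control library. The cortex libraries held 329130 to 435296 counts, so 3 reads stand for 6.89 to 9.11 CPM. In the hippocampus, Ttr in control library 1 was the one value of these genes above that level. Cortex reads were counted with a strand option that the hippocampal reads were not, so the level of a gene in cortex is not compared with its level in hippocampus.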

How the data were processed

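RNA of rat cortex (polyA-selected) and hippocampus (ribosome-depleted) was sequenced. Per the submitters' processing notes, FastQC 0.10.1, Trimmomatic, Bowtie2, SAMtools 0.1.19, featureCounts and edgeR were used on rn5. The authors deposited raw counts for each RefSeq record. Per the file headers, featureCounts 1.4.6-p2 made them, with strand option 1 for cortex and none for hippocampus, so hippocampal sense and antisense reads cannot be told apart. Settings of the Bowtie2 alignment were not found in these sources. Symbols came from a RefSeq table of GRCr8, which named 17339 of 18278 records.

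Hippocampal counts were fitted in R 4.3.3 with edgeR 4.0.16 (filterByExpr with a minimum count of 10 and total of 15, TMM, glmQLFit, glmQLFTest) over all records. Log2 CPM used a prior count of 2. Total counts were 16728486 to 51463555. Alternatives used DESeq2 1.42.0, limma 3.58.1 and sva 3.50.0. The fit was also run on simulated counts with the same dispersion for every record and no libraries of differing tissue markers. That run does not show how the fit performs on these libraries. The members and the 14 gene lists were chosen with earlier results of these data known. Genes named from a list were the 3 with the smallest p and the 3 with the highest mean among those at 1 CPM or more, and a selection of these is printed. Cortex was not tested, since its depth gave at most 4 reads per gene in all.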

Additional observations from a re-analysis of the deposited data

Results flagged for a closer look

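Aqp1 in VNS hippocampus was flagged because 1 library stood far from the other 3. VNS library 1 was at 1.05 CPM (71 reads), against 0.388 to 0.446 CPM in VNS libraries 2, 3 and 4. The gap to the nearest library was 0.913 of the group's range. Of the 5 genes looked at in this way, the other 4 were not flagged, and chance flags about 1 in 20 groups. VNS library 1 also differed in its share of even counts (54.2%) and was the deepest. Groups of 3, which include the hippocampal controls, are not looked at by this rule.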

How the results depend on the processing

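Each alternative was a fit over all hippocampal records. Adjusted p stayed above 0.05 for Ttr, Folr1 and Aqp1 in each alternative that gave one, and for Clic6 and Kl in each but that without control library 3. Leaving out each library in turn gave log2 fold changes of -2.78 to 1.4 for Ttr, -3.22 to -2.27 for Clic6, -2.76 to -1.55 for Kl, -0.73 to 0.12 for Folr1 and -0.71 to 0.074 for Aqp1. Without control libraries 1 and 2 together they were 1.04 (Ttr), 0.40 (Clic6), 0.97 (Kl), 0.58 (Folr1) and -0.51 (Aqp1). In that fit, extended to the lists and 19 genes named from them after the data were seen, 5 of the 19 changed sign, to 4.30 (Otx2), 0.40 (Lrp2), -0.098 (Dio2), 0.19 (Tyms) and 0.20 (Foxj1). The list medians that changed sign were 0.13 (other choroid plexus genes), 0.067 (folate), 0.00057 (endothelium) and 0.55 (thalamic and brainstem neurons). Those above 0 that kept their sign were 0.42 (ependymal), 0.30 (meningeal), 0.13 (excitatory neurons), 0.12 (klotho), 0.099 (thyroid hormone and retinol) and 0.0059 (astrocytes). Those below 0 were -0.30 (oligodendrocytes), -0.10 (Clic family), -0.032 (aquaporins) and -0.028 (red blood cells). In that fit 13 of 14 ependymal records were positive and all 8 oligodendrocyte records negative. With limma-voom Aqp1 was at 0.10, Ttr at -0.43 and Kl at -1.65, and with 1 surrogate variable Ttr was at -0.75, Clic6 at -1.71 and Kl at -1.17. The cause of these changes was not tested.

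The count of called records was 16 with DESeq2, 291 with 1 surrogate variable and 0 to 1377 without 1 library each, the highest without control library 3. The count at an unadjusted p under 0.05, 1537 of 12728, was 616 (without control library 1) to 3460 (without control library 3), and 105 without control libraries 1 and 2. Clic6 had too few reads to be tested without VNS library 1 and with halved counts, an alternative chosen after seeing the data, and Clic6 and Kl with the 1 CPM filter. DESeq2 gave no p for Ttr. Of the 10 correlations, 5 changed sign without the 2 farthest libraries. No paired analysis was possible because the labels give libraries no shared replicate numbers. Depth limits VNS library 3 most, with 6 reads of the 5 genes.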
